A study of Mus musculus with 30 samples.

Results

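The genes described here are 34 genes of T lymphocytes, taken by symbol from the tables of lung and spleen RNA of mice. They were chosen by symbol as known T cell genes. All 34 were found in each tissue, once each, among 19470 entries for lung and 18845 for spleen. By role they comprise the CD3 and zeta chains of the T cell receptor complex (Cd3e, Cd3d, Cd3g, Cd247), the coreceptors (Cd4, Cd8a, Cd8b1), 11 kinases and adaptors (Lck, Zap70, Lat, Txk, Prkcq, Skap1, Sh2d1a, Trat1, Themis, Ubash3a, Sit1), 6 surface receptors (Cd2, Cd5, Cd6, Cd27, Cd96, Thy1), 3 cytokine receptor chains (Il2ra, Il2rb, Il7r) and 7 transcription factors (Tcf7, Lef1, Bcl11b, Gata3, Foxp3, Ikzf2, Satb1).

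The tissues came from C57BL/6 mice aged 8 weeks. Of the 3 genotypes 1 was wild type and the others are labelled lincRNA-Cox2 knockout and lincRNA-Cox2 Mutant. This noncoding RNA comes from a gene beside Ptgs2, which encodes cyclooxygenase 2, and the 2 altered lines address which genes depend on it. Treated mice received lipopolysaccharide (LPS), a bacterial wall component sensed by Toll-like receptor 4, by intraperitoneal injection at 20 mg/kg, and lungs and spleens were taken at 6 h; the control groups are labelled PBS. Each of the 3 genotypes had 3 LPS libraries and 2 PBS libraries in each tissue. The labels do not say how either altered line was made, whether replicates are separate animals, or which lung and spleen belong to the same mouse, so the spread behind the authors' tests may be partly technical.

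T cells recognise antigen through a receptor whose signal is carried by the CD3 chains and the zeta chain encoded by Cd247. The coreceptors bring the kinase Lck to the complex, Lck phosphorylates its tails, Zap70 docks there and phosphorylates the adaptor Lat, and the transcription factors Tcf7, Lef1, Bcl11b, Gata3, Satb1 and Foxp3 set T cell identity and the regulatory T cell lineage. Several of these genes are not exclusive to T cells: natural killer cells also use Cd247 and Il2rb, innate lymphoid cells use Gata3 and Il7r, and activated myeloid cells can express Il2ra.

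The promoters of the 3 adjacent CD3 genes and of Il2ra are shown because the CD3 genes mostly had lower means with LPS and Il2ra had far higher ones. Cd3g, Cd3d and Cd3e lie in a row on chromosome 9, with 1354 bases between the gene bodies of Cd3g and Cd3d and 11400 between Cd3d and Cd3e. Each sequence runs 5′ to 3′ from 250 bases before to 50 after a transcript start, from RefSeq on GRCm38.p6: chr9:45009562-45009861 on the minus strand for Cd3e, chr9:44981536-44981835 on the plus strand for Cd3d, chr9:44980382-44980681 on the minus strand for Cd3g and chr2:11642542-11642841 on the plus strand for Il2ra. Capitals mark matches on either strand. The Ets motif searched was GGAAGT, the motif taken for Gata factors was AGATAA, the one for Tcf and Lef factors was CTTTGA, and the E-box searched was CAGCTG. The NF-kB motif was its consensus.
Cd3e: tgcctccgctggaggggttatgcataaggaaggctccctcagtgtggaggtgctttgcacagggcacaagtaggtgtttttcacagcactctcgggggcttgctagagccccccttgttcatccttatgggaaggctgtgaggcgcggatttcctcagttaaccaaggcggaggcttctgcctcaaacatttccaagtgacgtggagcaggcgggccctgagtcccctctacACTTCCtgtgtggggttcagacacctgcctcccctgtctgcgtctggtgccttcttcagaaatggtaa
Cd3d: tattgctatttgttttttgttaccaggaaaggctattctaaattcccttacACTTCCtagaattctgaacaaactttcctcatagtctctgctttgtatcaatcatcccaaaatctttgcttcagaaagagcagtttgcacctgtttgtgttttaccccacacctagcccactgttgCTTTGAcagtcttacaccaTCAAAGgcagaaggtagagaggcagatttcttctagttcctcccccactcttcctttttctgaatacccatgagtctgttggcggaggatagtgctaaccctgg
Cd3g: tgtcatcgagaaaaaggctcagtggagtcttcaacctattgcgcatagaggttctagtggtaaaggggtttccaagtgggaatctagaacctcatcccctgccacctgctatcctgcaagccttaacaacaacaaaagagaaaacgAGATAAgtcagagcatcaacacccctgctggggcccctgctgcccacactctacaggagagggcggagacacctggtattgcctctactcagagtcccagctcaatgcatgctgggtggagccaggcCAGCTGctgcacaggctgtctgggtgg
Il2ra: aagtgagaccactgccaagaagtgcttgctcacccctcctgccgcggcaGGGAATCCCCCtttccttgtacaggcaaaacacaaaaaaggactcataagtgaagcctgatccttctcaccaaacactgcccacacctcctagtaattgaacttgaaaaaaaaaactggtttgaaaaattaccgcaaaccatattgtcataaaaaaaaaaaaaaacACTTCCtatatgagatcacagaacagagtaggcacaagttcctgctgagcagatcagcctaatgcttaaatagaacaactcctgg
The Cd3e window held an Ets match at position -18 from the start. The Cd3d window held an Ets match at -199 and Tcf/Lef matches at -73 and -54. The Cd3g window had neither, but a Gata match at -104 and an E-box at position 24. The Il2ra window had an Ets match at -35 and overlapping NF-kB matches at -201 and -200.

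Of the 34 genes, 25 had promoter entries, 39 promoters in all. GGAAGT was present in 18 of these 39 (46.2%), against 23.8% of all 32851 promoters of the same length. CTTTGA was in 9 (23.1% against 16%), CAGCTG in 8 (20.5% against 16.3%), TGTGGT (Runx) in 7 (17.9% against 16.8%) and AGATAA in 5 (12.8% against 11.2%). The NF-kB consensus was in 1 of them, that of Il2ra (2.56% against 4.51%), and TGACTCA (AP-1) in 0 of 39 against 5.2%. Some of these promoters belong to the same gene and overlap, and a match describes letters, not a bound site.

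Values are the authors' means of normalized counts over the libraries of a group, without the single libraries, so no spread is known and no test of LPS against PBS was possible. Library totals, estimated from the steps between low means, ran from 5.20 to 17.3 M counts in lung and from 0.940 to 8.95 M in spleen (M for mega). The lowest is 1 of the 3 mutant LPS spleen libraries, in which a single read moves the group mean by 1.78. The RNA of lincRNA-Cox2 was at 34.8 (PBS) and 30.2 (LPS) in wild type lung and at 0 in the lungs of both altered lines, and in spleen at 2.13 and 3.53 against 0 to 0.322. For those groups at 0, 3 reads in the shallowest library of the group would give a mean of up to 2.00 in lung and 5.34 in spleen, counting error only. Xist was at 3660 in the PBS and 14.5 in the LPS lungs of the wild type, at 1910 and 23.2 in the knockout and at 3300 and 4510 in the mutant, and the Y-linked Ddx3y went the other way (294 and 1150, 447 and 1130, 317 and 4.73). Expression of sex-linked genes thus differed between the LPS and PBS groups within a genotype, and between the mutant and the other LPS groups, in spleen as well. The labels give no sex. From group means an effect of sex cannot be told apart from that of LPS. Nor can it be told apart from that of the mutant genotype in the LPS groups. Its part in any difference given here was not tested. The tissue labels matched their markers: the lung epithelial list summed to between 94627 and 137654 in lung groups and between 802 and 2508 in spleen groups.

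Tcf7, Cd2 and Thy1 were among the most abundant of the 34 transcripts in unchallenged wild type tissue, where the cells that made them are not known. Per kilobase of merged exon, the order of levels with PBS in lung began with Tcf7 (123 mean normalized counts per kilobase), Cd2 (70.1), Gata3 (68.4) and Thy1 (47.1), and in spleen with Cd2 (243), Tcf7 (211), Lck (170) and Cd8b1 (168). Gata3, a factor of helper T cells and innate lymphoid cells, ranked 3 of 34 in lung but 25 in spleen. Which cells made it in lung was not tested. The CD3 chains lay close together in each tissue, at 17.7 (Cd3d), 17.3 (Cd3g) and 14.2 (Cd3e) per kilobase in lung and at 99.2, 99.1 and 83.8 in spleen. Trat1 and Sh2d1a, both adaptors, were among the 4 lowest in both tissues. The 2 tables were normalized separately, so levels stand side by side and were not tested across tissues, and without single libraries it is not known which neighbours in this order differ beyond their spread.

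The LPS ratio used from here on is log2 of the LPS mean over the PBS mean, with 1 added to each, and was computed where 1 of those means reached 10. In wild type lung 30 of the 34 genes passed that minimum. Of these 12 were at least 2-fold lower with LPS, where 14.3% of all 15041 entries were, and 4 were at least 2-fold higher, where 13.9% of all entries were. The median LPS ratio was -0.77 for the T cell genes and -0.03 over all entries. In mutant lung 6 of 31 were lower (16% of all entries) and 5 higher (15.5%), with a median of -0.46, and in knockout lung 7 were lower (17.7%) and 1 higher (16.9%), with a median of -0.13. Wild type lung is therefore the lung group in which the share of lower members stood farthest from the background. Sh2d1a, Trat1 and Sit1 did not pass in any lung group, with means from 1.17 to 5.35, and Ubash3a, a phosphatase-like regulator of receptor signalling, did not pass in the wild type.

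**Figure D1:**
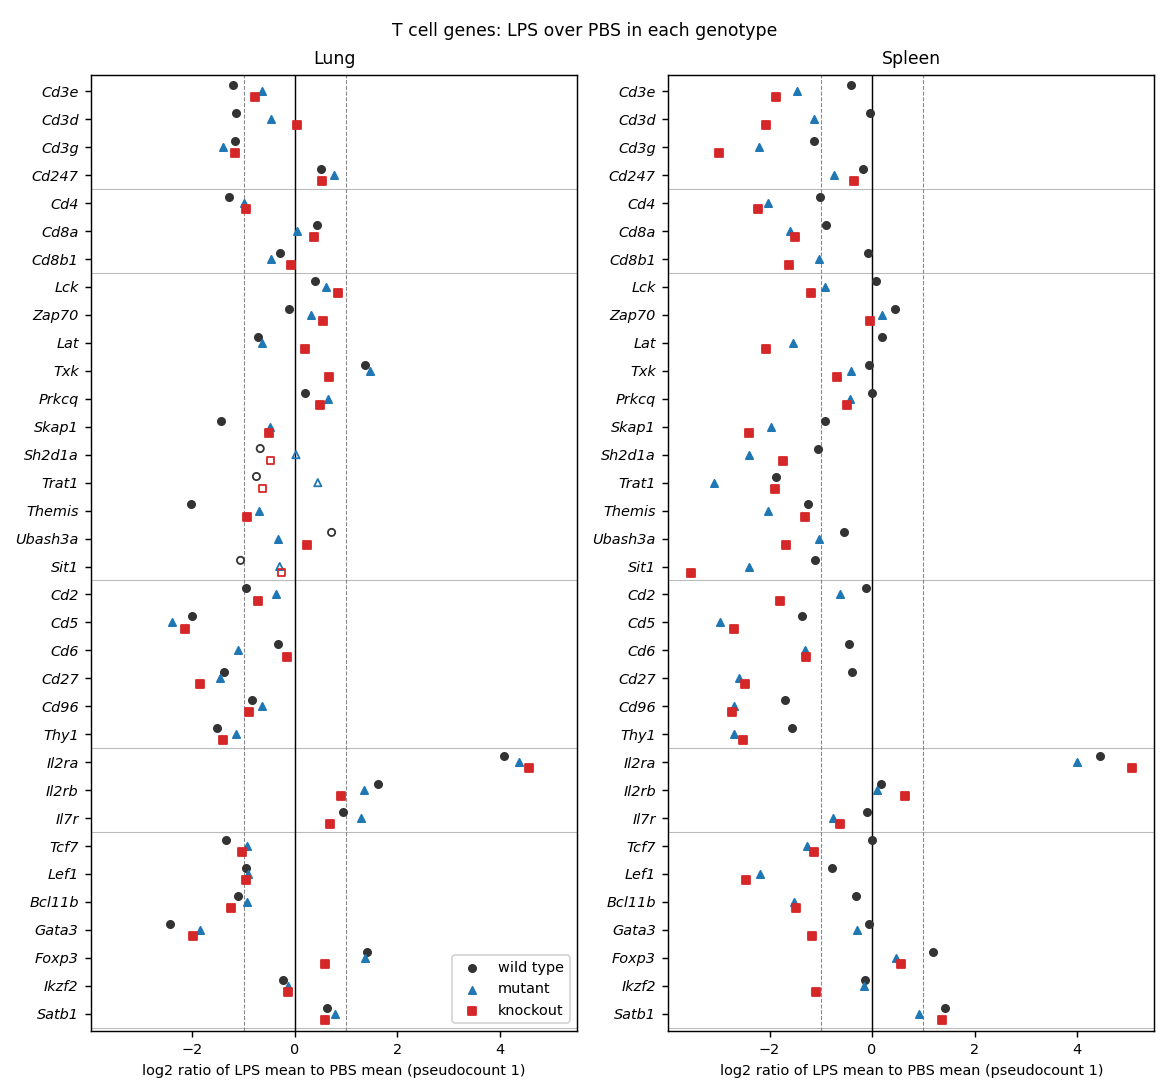
The LPS ratio (log2, x axis) of each of the 34 T cell genes (y axis, grouped by role) in lung and spleen, with black circles for wild type, blue triangles for mutant and red squares for knockout group means; hollow marks are genes under a mean of 10 in both groups, and dashed lines mark 2-fold. Il2ra lies far to the right in both tissues, and in spleen the mutant and knockout marks lie left of the wild type mark for most genes.

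The T cell receptor complex did not move as a block. In lung Cd3e had PBS and LPS means of 57.8 and 24.5 in the wild type, 64.7 and 41.3 in the mutant and 76.5 and 44.1 in the knockout. Cd3g, whose chain pairs with the same epsilon chain, had 56.5 and 24.6, 75.1 and 27.6, and 63.6 and 27.9. For both genes every LPS mean lay below every PBS mean. Cd3d had 32.2 and 13.9 in the wild type and 46.0 and 33.2 in the mutant, but 27.7 and 28.4 in the knockout, where LPS and PBS were level, so its treatment groups overlapped across genotypes. Cd247, the zeta chain shared with natural killer cell receptors, went the opposite way at 75.4 and 108, 98.6 and 169, and 76.2 and 110, with every LPS mean above every PBS mean.

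In spleen all 4 chains had lower LPS than PBS means in each genotype, by amounts that differed between genotypes. Cd3g stood at 324 and 147 in the wild type, 350 and 74.8 in the mutant and 432 and 53.7 in the knockout, which are LPS ratios of -1.13, -2.21 and -2.98. Cd3e stood at 342 and 258, 366 and 132, and 457 and 124, with ratios of -0.41, -1.46 and -1.87. Cd3d was nearly level in the wild type at 180 and 174, and stood at 268 and 121 in the mutant and 269 and 63.0 in the knockout. Cd247 varied least, at 195 and 172, 231 and 137, and 217 and 170. For all 4 the LPS means lay below the PBS means of every genotype.

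In lung Cd4, the coreceptor of helper T cells, and the Cd8 genes, those of cytotoxic T cells, had different ratios. Cd4 had lung means of 77.9 and 31.3 in the wild type, 79.0 and 39.3 in the mutant and 67.6 and 34.6 in the knockout. Cd8a had 33.3 and 45.5, 58.5 and 60.6, and 38.9 and 50.6, and Cd8b1 had 37.9 and 30.9, 68.7 and 49.6, and 45.3 and 43.2. Only for Cd4 among these 3 did the LPS and PBS lung means not overlap across genotypes, and no ratio of Cd8a or Cd8b1 in lung reached 2-fold. In spleen all 3 were lower with LPS. Cd4 stood there at 383 and 188, 487 and 119, and 447 and 94.5, with LPS ratios of -1.02, -2.02 and -2.23. Cd8a stood at 367 and 196, 337 and 110, and 358 and 125. Cd8b1 stood at 249 and 236 in the wild type, which is close to level, and at 328 and 160 and 347 and 112 in the mutant and knockout.

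**Figure D2:**
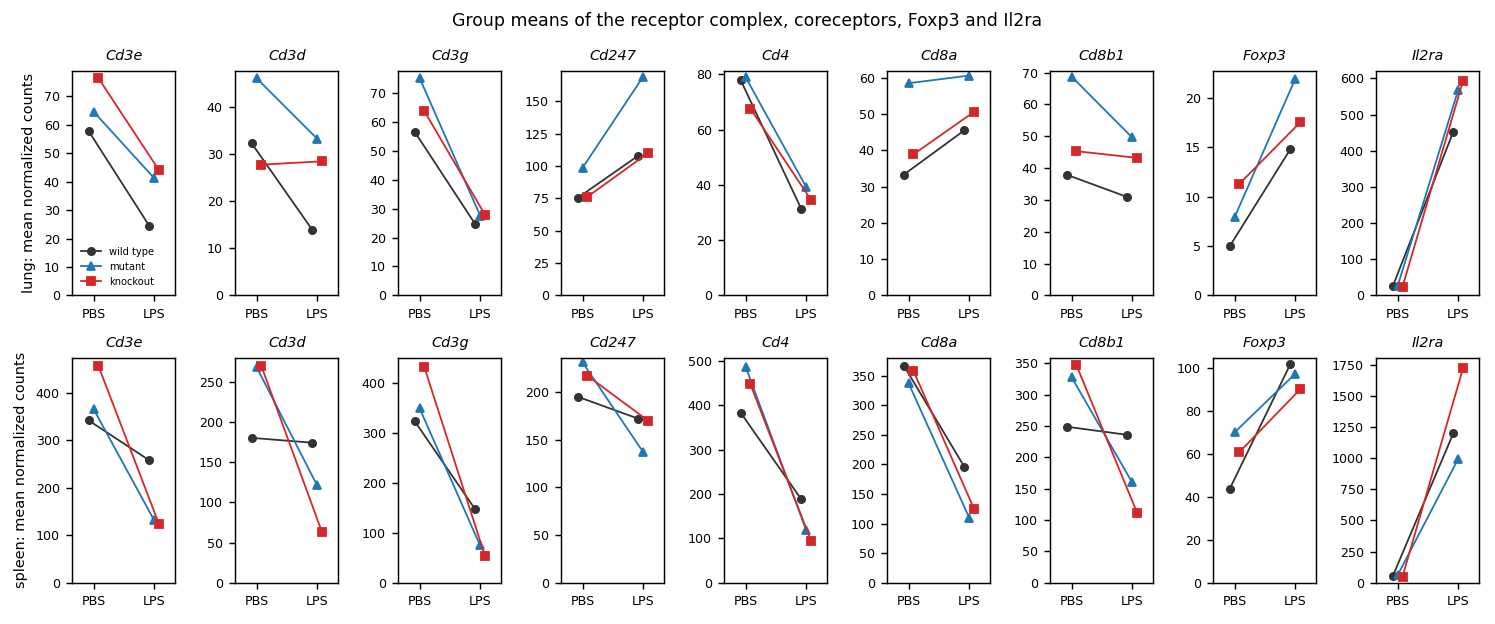
Mean normalized counts (y axis, from 0, a scale of its own in each panel) with PBS and LPS (x axis) for the 4 receptor complex genes, the 3 coreceptors, Foxp3 and Il2ra, in lung (top) and spleen (bottom); each point is the authors' mean of 2 PBS or 3 LPS libraries of a genotype, with no error bar because single libraries were not used. Il2ra goes from at most 61.2 to at least 453 in every line, while spleen Cd3g is at least 324 with PBS and at most 147 with LPS.

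The kinases and adaptors varied among themselves in direction and size. In lung Lck had 82.6 and 108, 108 and 165, and 93.3 and 168, higher with LPS in each genotype. Zap70 had 44.4 and 40.8, 49.4 and 62.1, and 41.3 and 60.9, overlapping between treatments. Txk, a Tec family kinase of T and natural killer cells, had 18.1 and 48.1, 36.6 and 103, and 27.0 and 43.2, with every LPS mean above every PBS mean. Skap1, an adaptor linking the receptor to integrins, had 43.1 and 15.2, 55.8 and 39.5, and 41.7 and 29.1, the reverse of Txk. Themis, needed for thymocyte selection, was low at 15.5 and 3.04, 11.2 and 6.5, and 11.3 and 5.45. Lat had 60.5 and 36.5, 76.6 and 48.8, and 52.3 and 60.2, so the knockout alone did not have the lower LPS mean. The lung means of Prkcq, the theta isoform of protein kinase C, ran from 185 to 366 and its ratios from 0.20 to 0.64.

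In spleen Lck and Lat were level or slightly higher with LPS in the wild type and lower in both altered lines. Lat had 276 and 317 in the wild type, 403 and 137 in the mutant and 378 and 89.6 in the knockout, which are ratios of 0.20, -1.55 and -2.06. Lck had 497 and 525, 694 and 369, and 709 and 309, with ratios of 0.08, -0.91 and -1.20. Zap70 stayed within 1.37-fold in each genotype, at 100 and 137, 134 and 153, and 117 and 113. Several regulators of receptor signalling had large ratios in the altered lines. Sit1, an inhibitory adaptor, had 29.1 and 12.9, 48.2 and 8.30, and 48.0 and 3.21, the last a ratio of -3.54. Ubash3a had 62.8 and 42.9, 73.3 and 35.3, and 54.3 and 16.3. Themis had 58.3 and 24.0, 87.5 and 20.6, and 74.7 and 29.6. Trat1, which stabilises the receptor complex at the surface, had 12.0 and 2.56, 13.1 and 0.659, and 10.1 and 2.00, LPS means that amount to a few reads per group. Txk and Prkcq had ratios between -0.68 and 0.01 in the 3 genotypes. Skap1 was at -0.93, -1.96 and -2.40 and Sh2d1a, the SAP adaptor, at -1.05, -2.40 and -1.74.

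All 6 surface receptors had lower LPS than PBS means in every genotype of both tissues. Cd5, an inhibitory receptor on T cells, had lung means of 17.5 and 3.62, 27.9 and 4.50, and 25.3 and 4.99, and spleen means of 122 and 46.5, 212 and 26.3, and 169 and 25.1. Thy1, a surface glycoprotein of T cells and some stromal cells, had 141 and 48.8, 162 and 72.8, and 190 and 70.9 in lung. In spleen it had 471 and 159, 558 and 85.8, and 645 and 112. For both genes the treatments did not overlap in either tissue, and each spleen LPS mean of an altered line was below that of the wild type. Cd27, a costimulatory receptor of the TNF receptor family, had 32.8 and 11.9, 48.8 and 17.2, and 53.2 and 14.1 in lung. In spleen it had 147 and 112 in the wild type but 194 and 31.2 in the mutant and 200 and 35.2 in the knockout, and among the 34 genes its ratio differed most between mutant and wild type. Cd96, a receptor of T and natural killer cells, had 87.4 and 26.1, 112 and 16.4, and 100 and 14.1 in spleen. Cd2, an adhesion receptor, had lung means of 122 and 62.2, 145 and 112, and 118 and 71.1 and spleen means of 423 and 390, 542 and 349, and 701 and 201. Cd6, an adhesion receptor related to Cd5, had the smallest lung ratios of the group in the wild type (-0.32) and knockout (-0.16).

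In lung all 3 interleukin receptor chains had higher means with LPS in each genotype, and in spleen Il2ra alone of them did so by at least 2-fold. Il2ra, the alpha chain of the interleukin-2 receptor and a marker of regulatory and activated T cells, had the highest LPS ratio of all members in each of the 6 genotype and tissue groups. Its lung means were 25.7 and 453, 26.3 and 568, and 24.0 and 593, a 17.0-fold, 20.8-fold and 23.8-fold difference. Its spleen means were 54.3 and 1200, 61.2 and 994, and 50 and 1720, or 21.7-fold, 16.0-fold and 33.7-fold. Il2rb, shared by the interleukin-2 and interleukin-15 receptors, had 67.5 and 209, 100 and 255, and 86.9 and 164 in lung. In spleen, at 338 and 380, 272 and 291, and 242 and 379, no ratio of it reached 2-fold. Il7r, the survival receptor of resting T cells, differed in direction between tissues, with 122 and 235, 151 and 369, and 124 and 200 in lung and 248 and 233, 326 and 191, and 250 and 162 in spleen.

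Foxp3 and Satb1 had higher means with LPS in both tissues, and the other 5 transcription factors had lower ones in lung. Gata3 had the lowest wild type LPS ratio in lung, with means of 272 and 49.3, 218 and 59.8, and 267 and 66.7, or 5.43-fold, 3.60-fold and 3.96-fold lower. In spleen its means were 63.0 and 60.7, 78.0 and 63.8, and 84.4 and 36.7, the last 2.27-fold lower. Tcf7 and Lef1, the factors downstream of Wnt signals that keep T cells naive or memory-like, and Bcl11b, which holds T cell identity, all had lung ratios between -1.34 and -0.91. In spleen Tcf7 had 555 and 555 in the wild type, 712 and 296 in the mutant and 705 and 323 in the knockout. Foxp3, the defining factor of regulatory T cells, had 4.99 and 14.8, 7.93 and 21.9, and 11.3 and 17.5 in lung and 43.9 and 102, 70.2 and 97.5, and 61.0 and 90.2 in spleen. Satb1, a chromatin organiser, had 134 and 206, 186 and 322, and 174 and 263 in lung and 517 and 1380, 666 and 1260, and 625 and 1600 in spleen. For Foxp3 and Satb1 every LPS mean lay above every PBS mean in both tissues. Ikzf2, a factor enriched in regulatory T cells, had 80.5 and 72.7, 102 and 91.9, and 114 and 53.1 in spleen and stayed within 1.18-fold in lung.

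Counted over all 34 genes in lung, the LPS means of the 3 genotypes all lay below the PBS means for 14 and all above for 7. Among the 31 with a mean of at least 10 in some group, 13 lay below (41.9%, against 36.4% of all such entries) and 7 above (22.6%, against 35.4%). The 7 are Cd247, Foxp3, Il2ra, Il2rb, Il7r, Txk and Satb1. In spleen, where all 34 reached that mean, 22 lay below (64.7%, against 31.4% of all such entries) and 3 above (8.82%, against 30.3%), the 3 being Foxp3, Il2ra and Satb1. Lung and spleen thus shared those 3 on the higher side. In whole tissue fewer T cells and less RNA per T cell cannot be told apart.

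The largest contrast between genotypes was in spleen. In the wild type spleen 9 of 34 genes were at least 2-fold lower with LPS (14.8% of all entries) and 3 higher (13.5%), with a median LPS ratio of -0.24 against 0.02 over all entries. In the mutant 21 were lower (16.7%) and 1 higher (15.3%), with a median of -1.29, and in the knockout 25 were lower (18.7%) and 2 higher (16.6%), with a median of -1.57. The mutant LPS values include the library of 0.940 M counts, and that group also differed from the other LPS groups in Xist and Ddx3y. The LPS ratio was lower in the mutant than in the wild type for all 34 genes, with a median difference of -0.97 against -0.02 over all entries, and lower in the knockout for 32 of 34, with a median difference of -1.08 against -0.02. A difference of at least 1 (log2) on the lower side was reached by 15 genes in the mutant, where 5.35% of all entries reached it, and by 18 in the knockout, where 9.72% did. On the higher side it was reached by 0 in both (5.79% and 8.35% of all entries). Both differences use the same wild type means, and genes of one cell type vary together, so the counts are not independent.

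Single genes ranged widely in this difference. In the mutant spleen it ran from -2.21 for Cd27 to -0.004 for Ikzf2, and in the knockout from -2.43 for Sit1 to 0.64 for Il2ra. Lat differed by -1.75 and -2.26, Cd3d by -1.09 and -2.03 and Cd3g by -1.08 and -1.85. Foxp3 differed by -0.73 and -0.64. In lung the median difference was 0.21 in the mutant and 0.14 in the knockout. There 1 gene, Themis at 1.33, was at least 1 higher in the mutant (2.29% of all entries) and 0 were lower (1.52%). In the knockout 2 were higher, Cd3d at 1.19 and Themis at 1.10 (3.25%), and 0 were lower (2.26%). No interaction between genotype and LPS could be tested from group means.

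The authors compared the genotypes within each treatment, and their adjusted p-values are the only tests of these genes. Of the 34 genes 0 were called in the authors' deposited table at an adjusted p under 0.05 in any of the 12 genotype comparisons. The share of all tested entries called there was 0.0715% for mutant over wild type, 0.441% for knockout over wild type and 0.243% for knockout over mutant in LPS lung, and 0.00545%, 0.0241% and 0.177% in LPS spleen. With PBS it was 0.00524%, 0.0421% and 0.0523% in lung and 0%, 0.16% and 0% in spleen. With so few calls over the whole table, a count of 0 among 34 genes says little about them. DESeq2 is the tool for such comparisons that the processing notes name, and unadjusted p-values were not used here.

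In LPS lung the folds leaned upward in both altered lines without passing the test. Mutant over wild type was above 0 for 32 of 34 genes, with a median log2 fold of 0.56 in the authors' deposited table against 0.01 over all tested entries. The lowest adjusted p of a T cell gene in that comparison of the authors' deposited table was 0.156, for Skap1 at a log2 fold of 1.32, followed by 0.65 for Cd2 at 0.82. Knockout over wild type was above 0 for 30 of 34, with a median of 0.35, and the authors' deposited table gave Skap1 0.89 (adjusted p = 0.368) and Lat 0.69 (adjusted p = 0.402). The kinases and adaptors had the highest median of the 6 roles in both comparisons, 0.68 and 0.56, beside 0.66 and 0.45 for the T cell receptor complex. They include Sh2d1a, Trat1 and Sit1, which did not reach a mean of 10 in any lung group. The mutant median is the fold of Trat1, at means of 1.17 and 3.09 in wild type and mutant, so this order is uncertain. Some other lymphocyte lists leaned the same way there: the folds of mutant over wild type were above 0 for 12 of 12 B cell markers (median 0.52 in the authors' deposited table) and 12 of 12 natural killer and cytotoxic markers (0.62). Those of knockout over wild type were above 0 for 12 of 12 (1.00) and 11 of 12 (0.38), and the B cell factor Pax5 was called, at a log2 fold of 1.62 (adjusted p = 0.00517) in the authors' deposited table. Not every list shared this lean. Over wild type, 11 of 30 other T cell receptor signalling genes were above 0 in the mutant (median -0.08 in the authors' deposited table) and 16 in the knockout (0.01). Of the innate lymphoid markers 6 of 10 (0.10) and 4 of 10 (-0.07) were. For the T cell genes knockout over mutant was above 0 for 9, with a median of -0.22. There the authors' deposited table gave Il7r a log2 fold of -0.86 (adjusted p = 0.238) and Txk -1.17 (adjusted p = 0.353).

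In LPS spleen the folds leaned downward, again without a call. Mutant over wild type was above 0 for 4 of 34 genes, with a median log2 fold of -0.48 in the authors' deposited table against -0.02 over all tested entries, and every T cell gene had an adjusted p of 1 there. The lowest fold of that comparison in the authors' deposited table was -1.48 for Cd27. Knockout over wild type was above 0 for 3, with a median of -0.66 against -0.04. The authors' deposited table gave Ubash3a a log2 fold of -1.26 (adjusted p = 0.316), Lat -1.55 (adjusted p = 0.388) and the receptor chain genes Cd3d -1.22 (adjusted p = 0.57) and Cd3g -1.21 (adjusted p = 0.559). Il2ra, at 0.47 in the authors' deposited table, was the highest. Knockout over mutant was above 0 for 11, with a median of -0.24, and the lowest adjusted p-values, from the authors' deposited table, were 0.502 for Ikzf2 at -0.68 and 0.507 for Ubash3a at -0.78. For that knockout over wild type comparison the median of -0.66 from the authors' deposited table stands beside -0.74 from the log2 ratios of the same means, so the deposited folds are somewhat smaller.

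With PBS the direction in spleen was the reverse. Mutant over wild type was above 0 for 32 genes and knockout over wild type for 29, with a median log2 fold of 0.32 for each in the authors' deposited table, against 0.00 and -0.01 over all tested entries. In that knockout comparison only 3124 entries were tested, 6 T cell genes among them. Its T cell figures use all 34 folds, so the 2 sets are unlike. The lower LPS ratios of the altered lines in spleen therefore combine higher PBS means with lower LPS means. In the authors' deposited table the adjusted p was 1 for every T cell gene in the mutant comparison and at least 0.999 for the 6 T cell genes that had a value in the knockout comparison. In PBS lung the medians were 0.35 for mutant over wild type and 0.15 for knockout over wild type, with 29 and 22 genes above 0 and every adjusted p at 1 in the authors' deposited table. Knockout over mutant with PBS had medians of -0.21 in lung and -0.09 in spleen.

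**Figure D3:**
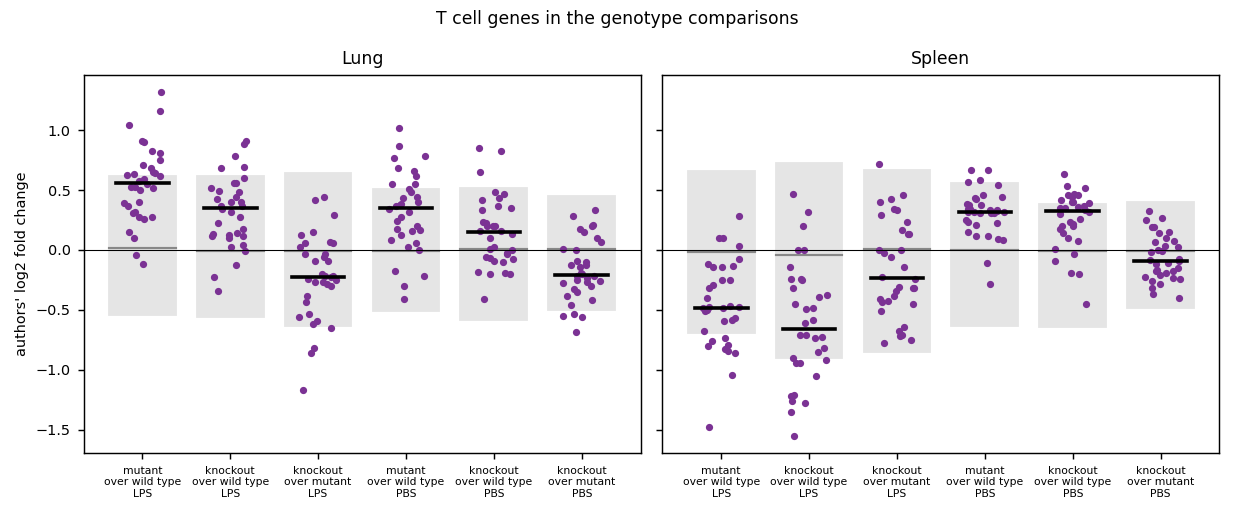
The authors' log2 fold change (y axis) of the 34 T cell genes (points) in 6 genotype comparisons per tissue (x axis), with a black line at their median, a grey line at the median of all tested entries and a grey box between percentiles 5 and 95 of those entries. The T cell medians with LPS lie above 0 in lung and below 0 in spleen for both altered lines over wild type.

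Genes that act further along the same pathway were examined as a list of 30 other T cell receptor signalling genes, many of which also serve in B cells and myeloid cells. In lung 10, 11 and 8 of them were at least 2-fold higher with LPS in wild type, mutant and knockout and 3, 4 and 4 lower, with medians of 0.00, 0.29 and 0.22. The adaptor Lcp2, which Lat recruits, had the highest wild type ratio at 191 and 1640, and the paracaspase Malt1 the next at 299 and 1510, whereas Dgkz, which removes diacylglycerol, had the lowest at 1140 and 404. In spleen 0 were at least 2-fold higher in any genotype, and 3, 13 and 10 lower, with medians of -0.40, -0.88 and -0.77. The ubiquitin ligase Cblb had the highest wild type ratio there at 395 and 778, and the kinase Tec (192 and 75.9) and the adaptor Grap2 (557 and 247) the lowest. The authors' deposited table called 0 of the 30 in any LPS genotype comparison.

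A list of 18 T cell activation genes mostly had higher means with LPS, which in whole tissue cannot be assigned to T cells. Cd44, for example, had 1380 and 5930 in wild type lung, where Cd3e had 57.8 and 24.5. In lung 9, 11 and 9 of the 16 that passed the minimum were at least 2-fold higher with LPS and 0 lower, with medians of 1.30, 1.51 and 1.4. In spleen 10, 10 and 11 of 17 were higher and 2, 3 and 1 lower, with medians of 1.61, 1.23 and 1.61. Tnfrsf9, a costimulatory receptor, had the highest wild type lung ratio at 17.8 and 952, and Cd69, an early activation marker, the highest wild type spleen ratio at 147 and 1330. The interleukin-2 gene itself was at most 0.967 in any group, near the level of single reads. Cd28 (158 and 61.1) and Cd40lg (13.5 and 5.91) had the lowest wild type spleen ratios. Both had lower LPS than PBS means in every genotype of both tissues.

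Ctla4, the inhibitory receptor that regulatory T cells carry constantly and other T cells gain on activation, was the 1 gene of the T cell lists that passed the genotype test. Its spleen means with LPS were 407 in the knockout against 133 in the wild type and 128 in the mutant. With PBS they were 29.1, 28.0 and 34.9 in that order. In the authors' deposited table it was higher in the knockout than in the wild type by a log2 fold of 1.53 (adjusted p = 0.0159) and than in the mutant by 1.54 (adjusted p = 0.00687). Ctla4 stands on both the activation list and the regulatory T cell list. With LPS Foxp3, at 90.2 in the knockout, 102 in the wild type and 97.5 in the mutant, did not follow Ctla4. Il2ra, at 1720, 1200 and 994 in turn, also had its highest mean in the knockout. It did not pass the test there (adjusted p = 0.794 over wild type and 0.608 over mutant in the authors' deposited table).

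Among 8 genes of naive T cell homing, Ccr7 and Dapl1 lay at the ends in spleen. The chemokine receptor Ccr7 had 396 and 2190 in the wild type, 406 and 1650 in the mutant and 334 and 2090 in the knockout, and Dapl1 had 96.0 and 26.1, 86.7 and 22.5, and 130 and 9.16. In spleen 1 of 8 was at least 2-fold higher in each genotype, and 2, 4 and 2 were lower. In lung 3 were higher and 2 lower in each genotype. Ccr7 is also made by dendritic cells.

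Marker lists of other cell types were set beside the T cell genes. In spleen the 12 B cell markers had a median LPS ratio of -0.43 in the wild type, -1.86 in the mutant line and -1.90 in the knockout line, the same order as the T cell genes, and 4, 8 and 9 of them were at least 2-fold lower. Their summed means went from 12287 with PBS to 9305 with LPS in the wild type, from 15333 to 5476 in the mutant and from 16106 to 5288 in the knockout. The summed means of the 34 T cell genes went from 7352 to 7998, from 9308 to 6029 and from 9274 to 6582. Il2ra and Satb1 had the highest wild type LPS ratios in spleen (4.441 and 1.415) and were picked after the values were seen. Without them the sums of the other 32 went from 6780 to 5418, from 8580 to 3775 and from 8599 to 3262, lower with LPS in each genotype. Leaving out the highest ratios moves a sum in that direction by itself, so this is no separate result. The natural killer and cytotoxic list had medians of -0.41, -0.46 and -0.77, but most of its genes did not follow that order. Within it only Klra8 and Nkg7 had a lower ratio in the mutant than in the wild type. Others were higher in the mutant, such as Gzmb (5.13 against 2.96) and Ncr1 (-1.31 against -2.46). In the knockout its genes went both ways. The neutrophil list stood at 0.08, 2.05 and 0.19, highest in the mutant. The hepatocyte list stood at -1.86, 5.85 and 4.38 and so also differed between the wild type and both altered lines. Its summed means went from 3198 with PBS to 1016 with LPS in the wild type, from 1215 to 4226 in the mutant and from 1634 to 5553 in the knockout. The pancreatic acinar list, which marks tissue next to the spleen, summed to 1745 and 22960 in the wild type, 28430 and 35070 in the mutant and 4420 and 14070 in the knockout, with PBS and LPS in turn. In lung the neutrophil list had medians of 2.95, 3.11 and 3.29 and the endothelial list -1.85, -1.47 and -2.28, with 7, 7 and 8 of 10 at least 2-fold lower. No marker of the B cell, neutrophil, myeloid or endothelial lists was at 0 in any group. The part of any of these cell types in the T cell values was not tested.

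**Figure D4:**
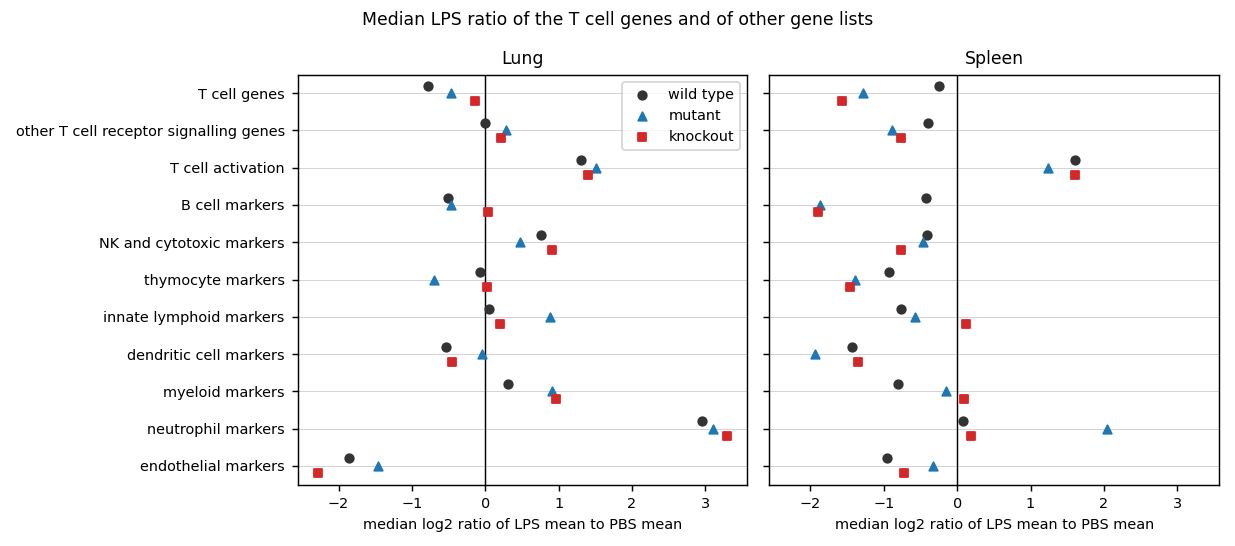
Median LPS ratio (log2, x axis) of the T cell genes and of 10 other gene lists (y axis) in lung and spleen, with black circles for wild type, blue triangles for mutant and red squares for knockout. In spleen the T cell genes and the B cell markers both have medians under -1 in the mutant and knockout and above -0.5 in the wild type.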

How the data were processed

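RNA of 15 lung and 15 spleen libraries was prepared with mRNA kits, per the labels' protocols. The submitters' processing notes name mm10 as the genome and list DESeq2, STAR 2.5.3a, Bowtie2, bedtools and SAMtools with no order or setting; whether counting used strand is not given in the sources used here. Per the file headers, each deposited table holds group means of a normalized signal (counts scaled by library), and for 6 genotype comparisons a log2 fold change and an adjusted p-value, which is handled as the authors' score.

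From 19476 lung and 18850 spleen lines, 6 and 5 with broken cells were left out, and 1026 spleen symbols split at a fixed width were rejoined. Weighted group means gave the overall mean of each T cell gene within ratios of 0.995 to 1.00. LPS ratios used a pseudocount of 1, a minimum of 10 for the larger mean and a 2-fold limit; calls used an adjusted p under 0.05. Fits on single libraries were not possible from group means, so the planned count model was replaced by the authors' comparisons. On values simulated for wild type LPS over PBS, 99% of 200 lung genes changed 4-fold (19470 entries) and 98% in spleen (18845 entries) passed 2-fold, as did 2.84% and 3.06% of unchanged genes. The changed genes were drawn from means of at least 50, with a spread set in advance and libraries of equal depth. Many lung members lie lower, depth differed and the real spread is unknown. These shares are therefore no error rates for the counts given here.

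The members and lists were chosen with earlier results of these data known. All 6 group means are given for the receptor complex, the coreceptors, Foxp3, Il2ra and, in each tissue, the 6 members with the highest and the 6 with the lowest wild type LPS ratio; for each LPS genotype comparison the 2 members with the lowest adjusted p are named, and of other lists the genes called or the 2 highest and 2 lowest by wild type ratio. Some genes that this rule would name are not reported here. Other values named were chosen after they were seen. Exon lengths came from GENCODE M21 on the same assembly. Alternatives were pseudocounts, minimum means, fold limits and centring. Python 3.11.15 with pandas 2.3.3 and numpy 2.4.6 was used.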

Additional observations from a re-analysis of the deposited data

How the results depend on the processing

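Group means carry no spread between libraries, so no library could be left out; leaving out each replicate was not run. No paired analysis was possible because the tables hold group means, and the labels number the libraries in 1 run from 1 to 30, so that no number recurs between groups. Of 236 recomputed values of counts and medians 219 stayed near the value reported and 17 moved. A count stayed if it was within 1.5 times of the value reported, and a median if its log2 value shifted by less than 1.5-fold. A median near 0 could therefore reach 0 or change sign and still count as unmoved. No T cell gene had repeated entries, so 18 of the values, from summing such entries, could not move. A reversed direction was looked for only in medians of at least 1 (log2) in size, so reversals are not counted here. With a mean of at least 50, wild type lung had 2 T cell genes higher and 6 lower and mutant lung 3 lower. How many genes reached that mean, and the shares of all entries there, were not computed, so these counts have no background. With a 1.5-fold limit mutant lung had 9 higher and 14 lower (25.1% and 26.9% of all entries), knockout lung 7 higher and 13 lower (27% and 28.5%), and mutant spleen 2 higher (26.4%). For the difference of LPS ratios from wild type, a pseudocount of 5 left 0 genes higher in mutant lung and 1 in knockout lung. The shares of all entries at that pseudocount were not computed. A 1.5-fold limit on that difference gave 5 higher and 1 lower in mutant lung (7.89% and 6.54% of all entries), 5 higher and 3 lower in knockout lung (11% and 10.2%), 23 lower in mutant spleen (14.8%) and 1 higher in knockout spleen (19.5%). Less the median over all genes, 5 of the 34 genes were above 0 for knockout over wild type in LPS spleen. Centring by itself puts the median of all tested entries at 0. Of 1123 values of single genes 8 moved, all by the pseudocount and in genes with LPS means under 10. Summing repeated entries and dropping the minimum mean, 194 values each, could not move any of them. Depth limits mutant LPS spleen most, where 3 reads in the shallowest library make 5.34 of the group mean.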

Other observations

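Entries for the T cell receptor chains themselves were looked up after the values of the T cell genes were seen. In spleen the alpha chain entry (Tcra) had PBS and LPS means of 303 and 261 in the wild type, 450 and 153 in the mutant and 379 and 190 in the knockout. The beta chain entry had 231 and 128, 285 and 62.2, and 248 and 75.2. The gamma chain entry (Tcrg), which marks a smaller T cell subset, had 42.4 and 37.6, 36.2 and 33.8, and 49.2 and 34.5, closer to level in each genotype. In lung Tcra had 51.8 and 49.2, 56.9 and 73.1, and 41.4 and 48.7. These gene segments are rearranged and similar to each other, and how the authors' counting assigned their reads is not given in the sources used here, so these values are uncertain.

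Of the T cell genes 3 lie on chromosome 1, the chromosome of lincRNA-Cox2: Cd247, Zap70 and Ikzf2. Cd247 is 15.6 Mb from lincRNA-Cox2. Of these, 0 passed the genotype test in the authors' deposited table.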
